A study of Mus musculus with 6 samples.

Results

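The 50 genes described here carry the mouse symbols Snx (sorting nexins) or Vps (vacuolar protein sorting) followed by a digit. They were chosen by symbol from the gene annotation of the array files, out of 16326 genes with at least 1 measured window. No measured value entered that rule, but the group was proposed with results of these data in view, so its counts are a description. There were 23 Snx and 27 Vps genes, and all 50 could be measured. The array symbols Snx26 and Vps24 correspond to the current names Arhgap33 and Chmp3.

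Binding of TEAD4 was measured by chromatin immunoprecipitation on promoter arrays in the mouse myoblast line C2C12, whose cells form myotubes in low serum. The TEAD4 group had been transduced with a retroviral vector for TEAD4 carrying a Flag-HA tag, and the control group with the empty vector. Both were selected in puromycin, kept for 5 days in 2% horse serum, fixed in 0.4% formaldehyde and precipitated with an anti-Flag antibody. There were 2 TEAD4 samples and 1 control sample, each on 2 array designs. The tagged TEAD4 was expressed from the vector in infected populations, so these data describe tagged protein and not the endogenous factor. The assay reads DNA, and neither the cells' markers nor the level of the tagged protein was measured.

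Sorting nexins are recognised by a PX domain, which binds phosphoinositides on endosomes. Those with an additional BAR domain bend membranes into tubules from which cargo is recycled. Retromer, a trimer of Vps26, Vps29 and Vps35, selects cargo for return to the Golgi or the cell surface. ESCRT complexes sort ubiquitinated cargo into vesicles bound for the lysosome, and the HOPS, CORVET and GARP tethers capture vesicles before fusion. TEAD proteins bind the M-CAT element and recruit YAP and TAZ. In muscle fibres, endosomal recycling returns the glucose transporter GLUT4 and other proteins to the surface.

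Promoter sequences were taken from RefSeq (GRCm38.p6), which held 43 promoter windows for 36 of the 50 genes. Those of Snx7, Snx17 and Vps52 are shown because these genes had the highest TEAD4 signal at their starts. Each runs 5′ to 3′ from 250 bases before the start to 10 bases after it, and capitals mark the M-CAT core, CATTCC or its reverse complement GGAATG.
Snx7 (chr3:117868927-117869186, minus strand): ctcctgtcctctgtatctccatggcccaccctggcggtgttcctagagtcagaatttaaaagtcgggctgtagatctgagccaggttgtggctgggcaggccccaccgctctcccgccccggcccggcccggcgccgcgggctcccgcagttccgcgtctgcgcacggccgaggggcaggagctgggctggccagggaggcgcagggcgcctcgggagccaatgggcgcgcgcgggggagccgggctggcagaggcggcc
Snx17 (chr5:31193054-31193313, plus strand): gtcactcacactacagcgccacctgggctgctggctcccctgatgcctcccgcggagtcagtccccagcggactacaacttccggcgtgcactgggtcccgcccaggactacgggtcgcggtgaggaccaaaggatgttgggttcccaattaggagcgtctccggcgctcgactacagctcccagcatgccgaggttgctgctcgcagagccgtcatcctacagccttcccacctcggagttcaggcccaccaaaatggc
Vps52 (chr17:33955840-33956099, plus strand): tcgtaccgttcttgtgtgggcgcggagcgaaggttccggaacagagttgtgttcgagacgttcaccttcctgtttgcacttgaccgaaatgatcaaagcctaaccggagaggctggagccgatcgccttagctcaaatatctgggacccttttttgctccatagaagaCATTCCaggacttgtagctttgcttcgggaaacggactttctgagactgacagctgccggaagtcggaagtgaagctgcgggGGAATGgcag
The search covered both strands over 300 bases. Snx7 and Snx17 held no match in these windows. The Vps52 sequence, the most downstream of its 3 annotated starts, held matches beginning at positions -82 and 1, counting from 1 at the first base after the start. The windows at the other annotated Vps52 starts held no match. Which Vps52 start the array's distances refer to was not determined. Vps13a, a lipid transfer protein gene, held a match at -213. Matches occurred in 2 of the 43 windows (4.65%), against 14.7% of all 32851 RefSeq promoters. Many enriched windows described below lay farther downstream than these sequences reach, and that DNA was not searched. The median GC content of the 43 windows was 64.7%, against 52.7% over all promoters.

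Signal was expressed as log2 of precipitated over input DNA (IP/input), centred on the median of each array. It was averaged over windows of at least 3 probes within 500 bp on each side. Levels called above or below input are thus relative to the array median. In the deposited log10 ratios that median was -0.182 and -0.156 in the control arrays and -0.0048 to 0.0012 in the TEAD4 arrays. Centring therefore raised the control relative to TEAD4. All scalings used here were centred, and the part of this shift in the comparisons with the control was not tested. The genes had 1367 probes and 1195 windows, with a median of 24 windows per gene and a range of 4 to 41. The designs were normalised separately, so levels set across genes of different designs share only this centring. The median IP spot was 3.63 to 5.41 times its local background in the TEAD4 arrays and 1.84 and 2.04 times in the control arrays. The control arrays were also scanned with an extended dynamic range that the TEAD4 arrays lacked, and the part of either difference in the comparisons with the control was not tested. Nothing in the labels says whether the TEAD4 samples came from separate cultures, so p-values measure only the spread between these samples, which may be technical.

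The rule of 2-fold over input did not use the control, which itself had such a window at 49 of the 50 genes (85.6% of all genes). Passing it is therefore not in itself evidence of TEAD4 binding. Flag signal reached 2-fold over input in both TEAD4 samples at Snx7, Snx1, Snx17, Vps37b, Snx30, Snx3 and Vps52. These 7 of 50 genes compare with 5.20% of all 16326 genes. They comprised the SNX-BAR genes Snx7, Snx1 and Snx30, the FERM-domain nexin Snx17, the PX-only nexin Snx3, and an ESCRT-I and a GARP subunit among the Vps genes. The window of highest mean TEAD4 signal (top window) had a median log2 IP/input of 0.56 over the 50 genes and 0.40 over all genes. On design 1, 4 of 27 genes passed, against 6.19% of all genes there, and on design 2, 3 of 23, against 4.20%. Judged on TEAD4 sample 2 without sample 1 the count was 12 (15.6% of all genes), and on sample 1 without sample 2 it was 7 (8.05%). It was 3 after normexp background correction (Snx7, Snx17 and Vps37b), against 3.35% of all genes. With windows of 1000 bp on each side it was 2 (Snx7 and Snx1), against 2.21%. When arrays were scaled to a common spread it was 11, all 7 included, against 15.3%.

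**Figure D1:**
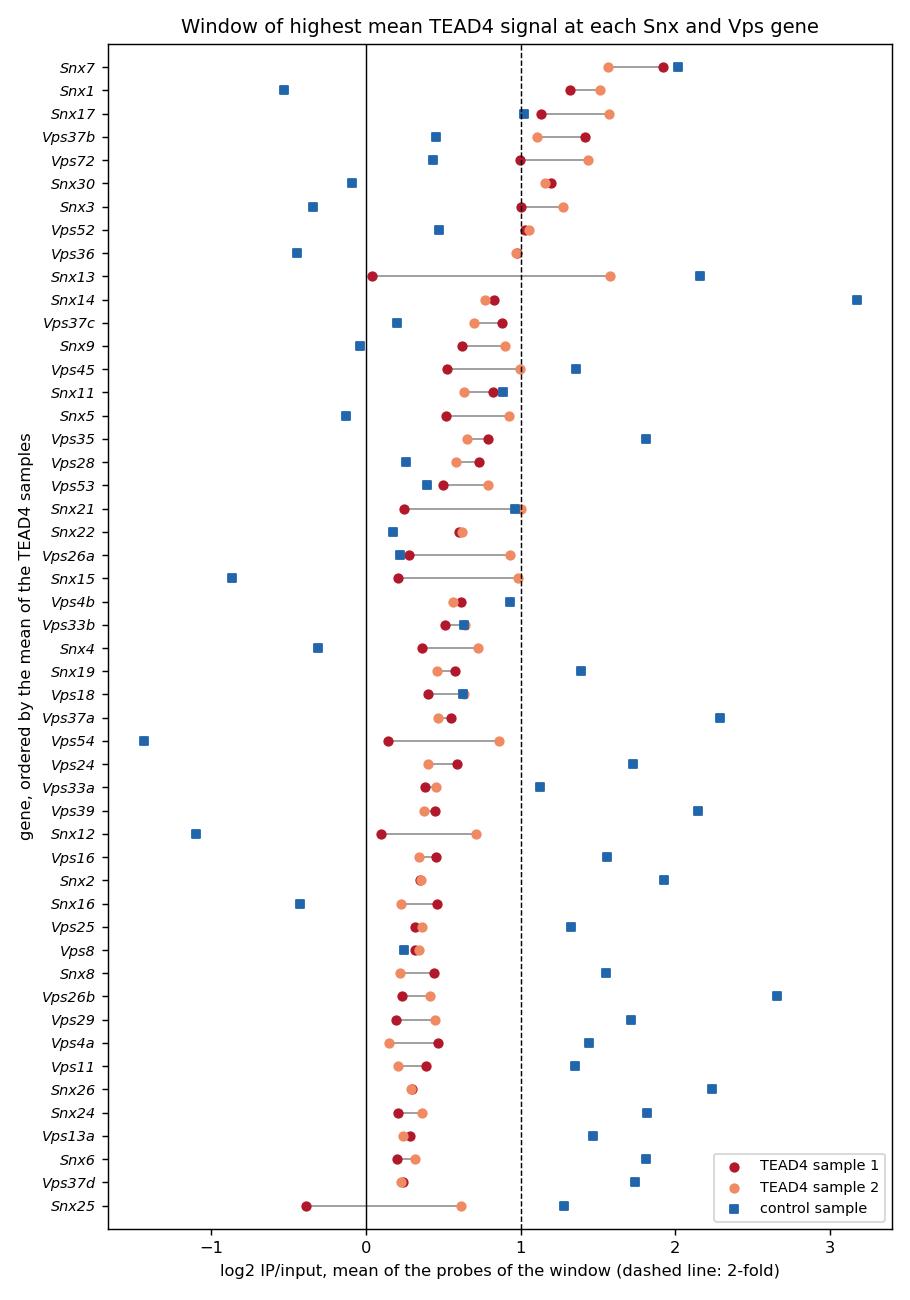
Log2 IP/input in the window of highest mean TEAD4 signal at each of the 50 genes, for TEAD4 samples 1 and 2 (circles joined by a line) and the control sample (squares), with genes ordered by the TEAD4 mean. In 7 genes both TEAD4 circles lie at or beyond the dashed 2-fold line, while the control squares range from -1.44 to 3.18. At the low end of the order, from Snx8 to Snx25, every control square lies between 1.28 and 2.66. Among the genes above these, control squares lie on both sides of 0. This difference was not tested.

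Snx7, a SNX-BAR protein that pairs with Snx4 in endosomal recycling, had the highest level. Its top window lay on chromosome 3 from 117859929 to 117860703, centred 454 bp downstream of the start, with 1.92 and 1.56 in the TEAD4 samples and 2.02 in the control. The control was thus the highest sample there, while the other scalings put the TEAD4 mean above the control by 0.40 to 1.60. The limma estimate over input was 1.74 ± 0.17 (SE), with an adjusted p of 6.25e-05. The enriched stretch ran for 2577 bp and 12 windows, from 117 to 2099 bp downstream. At 1751 bp the TEAD4 samples were at 1.57 and 1.55 and the control at -0.63. In 5 of the 12 windows both TEAD4 samples were also at least 2-fold above the control. The limma window of smallest p against the control lay elsewhere, at -5166 bp, and was lower, at -2.48 ± 0.28 (SE; adjusted p = 1.42e-05). At 1751 bp the other scalings gave a TEAD4 minus control difference between 1.88 and 2.58, against 2.20 under the main scaling.

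Snx1, a SNX-BAR protein of the membrane coat that works with retromer, was enriched inside the gene and not at its start. In the top window, on chromosome 9 from 65921048 to 65921779 and centred 1637 bp downstream, the TEAD4 samples were at 1.32 and 1.51 and the control at -0.53. Within 500 bp of the start the TEAD4 samples were at 0.45 and 0.25 and the control at 1.07. The order of TEAD4 and control was thus opposite at the start and inside the gene. From 617 to 1815 bp, 8 windows passed 2-fold over input, 5 of them also 2-fold above the control. Limma placed TEAD4 above input by 1.42 ± 0.15 (SE; adjusted p = 0.000117) and, at 1815 bp, above the control by 2.20 ± 0.26 (SE; adjusted p = 2.79e-05). After normexp correction that difference at 1815 bp was 1.10. A second rise in the last window, 3523 bp downstream, stood at 1.14 and 1.31, with 0.38 in the control, and after normexp correction at 0.28 and 0.89. Upstream, at -1095 bp, the TEAD4 samples were at 0.96 and 1.21 and the control at 0.61, short of 2-fold over input in sample 1.

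Snx17 binds the cytoplasmic tails of LDL receptor family members and integrins and returns them to the surface. Its top window, on chromosome 5 from 31469514 to 31470163, was centred at -119 bp from its start and at -99 bp from the start of Eif2b4, a subunit gene of the translation factor eIF2B. The TEAD4 samples were at 1.13 and 1.57 there and the control at 1.03, and the signal cannot be assigned to either gene. From -119 to 720 bp, 7 windows passed. At 720 bp the TEAD4 samples stood at 1.16 and 1.15 while the control had fallen to -0.10. Limma over input gave 1.33 ± 0.16 (SE; adjusted p = 0.000495) at 555 bp. Against the control it gave 1.70 ± 0.28 (SE; adjusted p = 0.00115) at 950 bp.

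Snx30, a SNX-BAR protein related to Snx7, and Snx3, a PX-only nexin that recruits retromer to the Wnt carrier Wntless, repeated the pattern seen at Snx1. At Snx30 the top window, 1469 bp downstream on chromosome 4 from 59900680 to 59901573, held 1.20 and 1.16 in the TEAD4 samples and -0.09 in the control. At 566 bp the control peaked at 2.54, where the TEAD4 samples were at 0.47 and 0.33. At Snx3 the top window was the last with 3 probes, 1231 bp downstream on chromosome 10 from 42191179 to 42191706, with 1.00 and 1.28 against -0.34. Single Snx3 probes farther out stood below input, at -0.37 and -0.18 at 1974 bp and at -0.76 and -0.038 at 2393 bp. The control was highest at 188 bp, at 2.38, where both TEAD4 samples stood at 0.36. In these genes TEAD4 signal thus rose over the distance in which control signal fell. Limma over input gave adjusted p-values of 0.0018 for Snx30 and 0.000724 for Snx3. By contrast, the limma window of smallest p against the control lay near the start in each gene and had a negative estimate, -2.14 and -2.02.

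Vps37b and Vps52 were the 2 enriched Vps genes, and neither had a window 2-fold above both input and control under the main scaling. Vps37b, an ESCRT-I subunit, held 1.41 and 1.11 in the TEAD4 samples and 0.46 in the control at 563 bp downstream, on chromosome 5 from 124291931 to 124292758. Its enriched stretch covered 984 bp. At 786 bp its TEAD4 samples were at 1.47 and 1.04 with 0.056 in the control, short of 2-fold above the control in sample 2, and that window passed under normexp, loess and a common spread. Vps52, a GARP subunit for transport from endosomes to the Golgi, held 1.03 and 1.06 against 0.47 in a window of 3 probes at 364 bp, on chromosome 17 from 33566421 to 33566843. With a common spread the Vps52 window passed too, at 1.56 and 1.57 with 0.21 in the control. Limma over input gave 1.23 ± 0.16 (SE; adjusted p = 0.000738) and 1.04 ± 0.15 (SE; adjusted p = 0.000877).

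**Figure D2:**
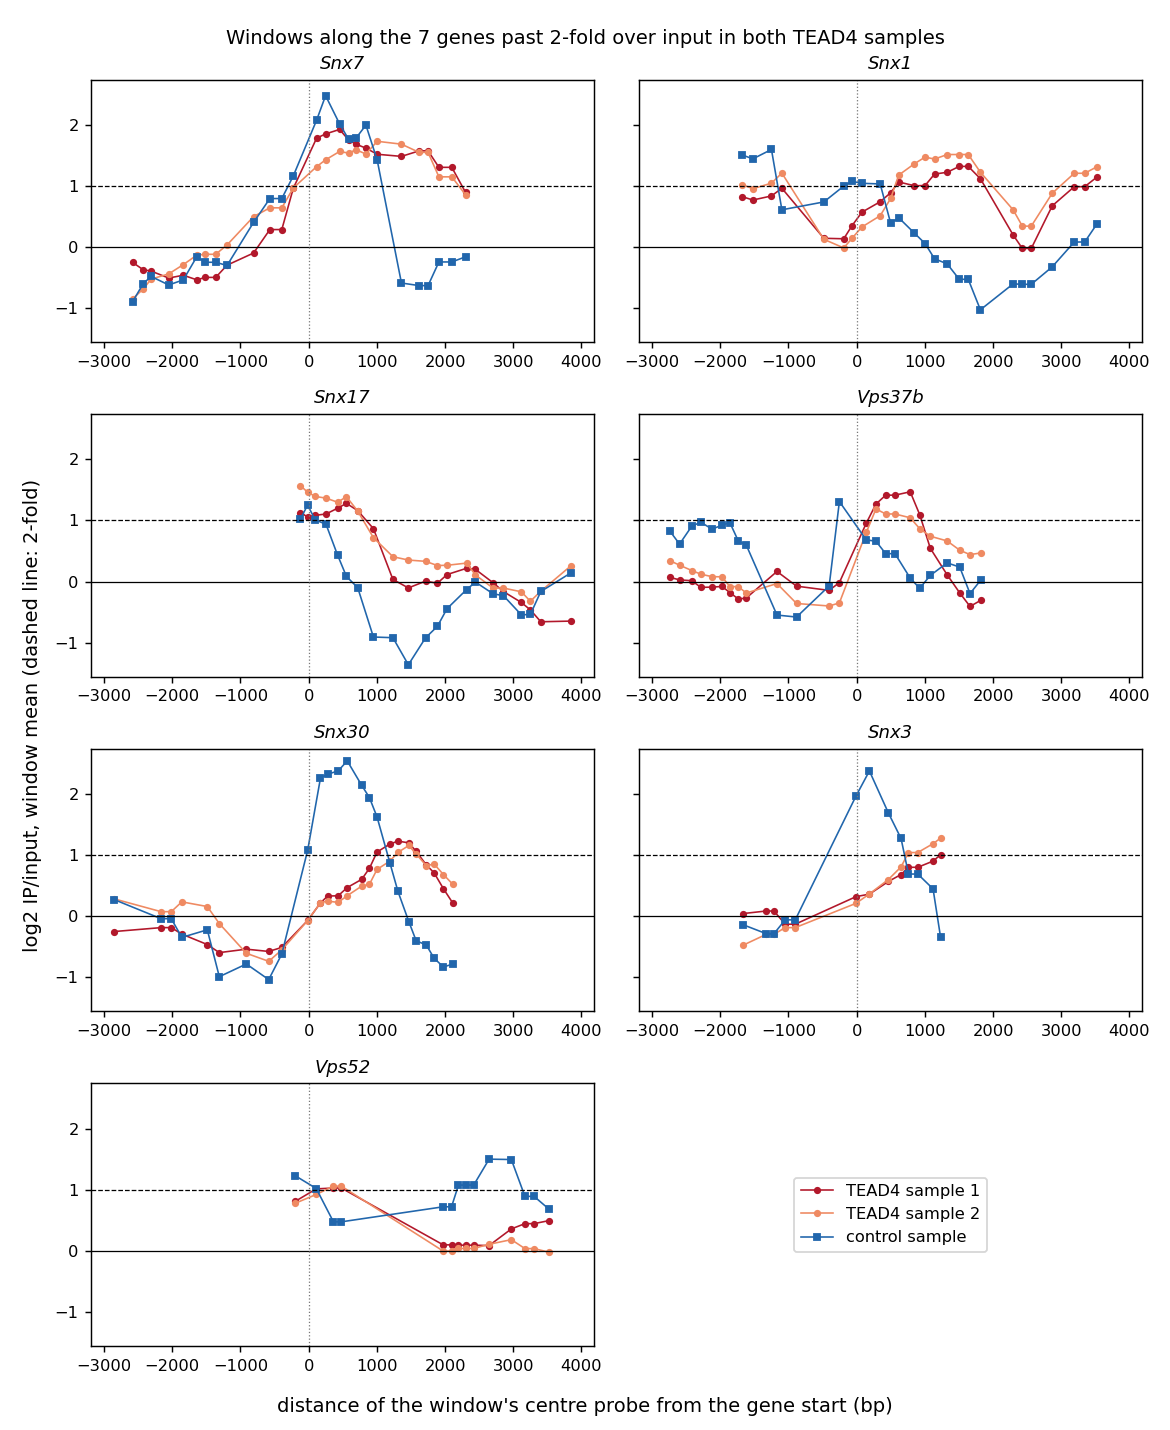
Window means of log2 IP/input against the distance of the centre probe from the gene start (bp) at the 7 genes past 2-fold over input in both TEAD4 samples, with the TEAD4 samples in red and orange and the control in blue. At Snx3, the far side of Snx7 and parts of Snx1 and Snx30, the TEAD4 lines lie past the 2-fold line where the control line is below 0. The control was below 0 in 5 of the 8 windows of the longer Snx1 stretch and in 2 of 3 at Snx30. At the starts of Snx30 and Snx3 the control is the highest line.

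Of the 7 genes, 6 had their top window downstream of the start, against 47.7% of the 849 enriched genes in all, and 3 had it more than 1000 bp downstream, against 21.9%. These shares were not tested. In 5 of the 7, Snx1, Snx17, Snx3, Snx30 and Snx7, a window was 2-fold above both input and the control, against 49.0% of the 849 enriched genes. Over all genes tested this was 5 of 50 against 2.55%.

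Just short of 2-fold was Vps36, the ubiquitin-binding ESCRT-II subunit, with 0.97 in each TEAD4 sample and -0.45 in the control at 806 bp downstream. Vps72, which despite its name encodes a chromatin remodelling subunit that handles the histone variant H2A.Z, had a higher mean, 1.21, but 0.99 in sample 1 and 1.44 in sample 2. Its top window lay at -4094 bp and at -89 bp from the start of Pip5k1a, a kinase that makes a plasma membrane phosphoinositide. Snx13, an RGS-domain nexin, showed the widest gap between samples, 0.040 against 1.58 at -676 bp, with 2.16 in the control. Across the 50 top windows the TEAD4 samples differed by a median of 0.18 and by at least 1 in 2 genes, Snx13 and Snx25.

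The retromer trimer was not enriched to 2-fold. Vps35, its scaffold, was at 0.79 and 0.65 in the TEAD4 samples at 125 bp downstream, with 1.81 in the control. Vps26a was at 0.28 and 0.93, with 0.22 in the control. Limma over input called both higher, by 0.72 ± 0.16 (SE; adjusted p = 0.0385) for Vps35 and 0.59 ± 0.16 (SE; adjusted p = 0.0402) for Vps26a. The other arrestin-like subunit gene, Vps26b, was at 0.23 and 0.41, and the small subunit gene Vps29 at 0.19 and 0.45. Their controls stood at 2.66 and 1.72, far above either TEAD4 sample. In the top windows of Vps26b and Vps29 the probes also belong to Ncapd3 and Rad9b.

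The other SNX-BAR partners of retromer, Snx2, Snx5 and Snx6, did not reach 2-fold over input in both samples. Snx5 was at 0.52 and 0.92 in the TEAD4 samples 1125 bp downstream, with -0.13 in the control, and limma over input gave 0.72 ± 0.17 (SE; adjusted p = 0.0448). Snx2 was at 0.35 and 0.36 with 1.93 in the control. Snx6 was at 0.20 and 0.32 with 1.81 in the control, among the 3 lowest of the 50 genes. Its 4 windows ended at 253 bp, so the distances at which Snx1 was highest were not measured in Snx6. The remaining SNX-BAR genes, Snx4, Snx8 and Snx9, brought the group to 9 measured genes with top-window means from 0.26 to 1.74. Limma over input called 6 of these 9 higher and 1, Snx6, lower, against 23.9% and 11.8% of all genes. The Snx6 call was far upstream, at -4540 bp, with -0.46 ± 0.15 (SE; adjusted p = 0.0334).

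Over all genes, 5.20% were enriched, and limma over input called 23.9% higher and 11.8% lower. Among the ESCRT genes, 1 of 5 ESCRT-I genes was enriched, Vps37b, and limma over input called 3 higher. Its paralogue Vps37d stood near the bottom of the 50, at 0.24 and 0.23 with 1.74 in the control. None of the 2 ESCRT-II genes or of the 3 genes for Vps24 and the VPS4 ATPases passed 2-fold, and their means lay between 0.30 and 0.97. Limma called 1 of these 5, Vps36, higher. The 7 genes grouped here under HOPS and CORVET ranged from 0.30 to 0.58, with none past 2-fold. The upper end was Vps33b, whose membership rests on this grouping only, and Vps18 followed at 0.51. Limma over input called 2 of the 7 lower and none higher (2 and 0 at an unadjusted p under 0.05). Those were Vps39, at -0.90 ± 0.18 (SE; adjusted p = 0.0188) 1821 bp downstream, and Vps8, at -0.81 ± 0.16 (SE; adjusted p = 0.00855). The windows of Vps8 lay at least 41858 bp from its annotated start, so its promoter was not measured. Snx25, an RGS-domain nexin, was lowest of all 50 genes, at -0.39 and 0.62 with opposite signs in the samples.

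By limma over input, 20 of the 50 genes were higher and 4 lower at an adjusted p under 0.05, against 23.9% and 11.8% of all genes. After normexp correction limma called 8 higher and none lower (22 and 0 at an unadjusted p under 0.05), against 12.4% (2020) and 49 of all 16326 genes. After loess within arrays it called 23 higher and 8 lower, against 31.8% and 15.6%. With windows of 1000 bp on each side it called 18 and 7, against 3616 and 2460 of 16417 genes.

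Near the starts the empty-vector control was the highest sample at most genes, except after normexp correction. Within 500 bp, 49 of the genes had at least 3 probes. Their median log2 IP/input was 0.35 and 0.36 in the TEAD4 samples and 1.81 in the control, and over all 14759 such genes it was 0.20, 0.15 and 1.37. The control lay above both TEAD4 samples in 42 of 49 genes (85.7%), against 79.9% of all genes. After normexp correction this was so in 24 of 49, with medians of 0.37 and 0.32 for TEAD4 and 0.37 for the control. The control was then below both in 19 of 49, against 4484 of all 14759 genes. Loess left the control above both in 37 and a common spread in 27 of 49. The shares of all genes with the control above both under these 3 scalings were 48.7%, 74.7% and 62.7%. Of the 50 genes, 49 had a window in which the control was 2-fold over input, against 85.6% of all genes. The exception was Snx4.

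The control peaks were led by Snx13, at 3.83 at 201 bp downstream, where the TEAD4 samples were at 0.24 and 0.31. Vps54, a GARP subunit gene, followed at 3.77, with 0.32 and 0.39. Snx5 came next at 3.57, with 0.32 and 0.011. None of these peaks had a counterpart in the TEAD4 samples. Within 500 bp, Snx17 (1.04 and 1.56, control 1.73), Snx7 (1.42 and 1.04, control 1.40), Vps52 (1.01 and 0.92, control 1.02), Vps35 (0.67 and 0.54, control 1.89) and Snx11 (0.77 and 0.40, control 0.89) had the highest TEAD4 means. The control was below both TEAD4 samples in 5 of 49 genes (10.2%), against 13.2% of all genes. The 5 were Vps45, Vps28, Snx15, Vps33b and Snx25. Vps45, a Sec1/Munc18 fusion regulator, was at 0.51 and 0.64 with -0.14 in the control. Across the 49 genes, Pearson's r of the start-proximal levels was 0.80 between the TEAD4 samples and -0.09 between their mean and the control, given as a description since neighbouring probes and arrays are shared. Over the 35 of these genes with a RefSeq promoter, r with promoter GC content was -0.03 for the TEAD4 mean and 0.30 for the control, against 0.31 and 0.62 over 9541 genes.

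**Figure D3:**
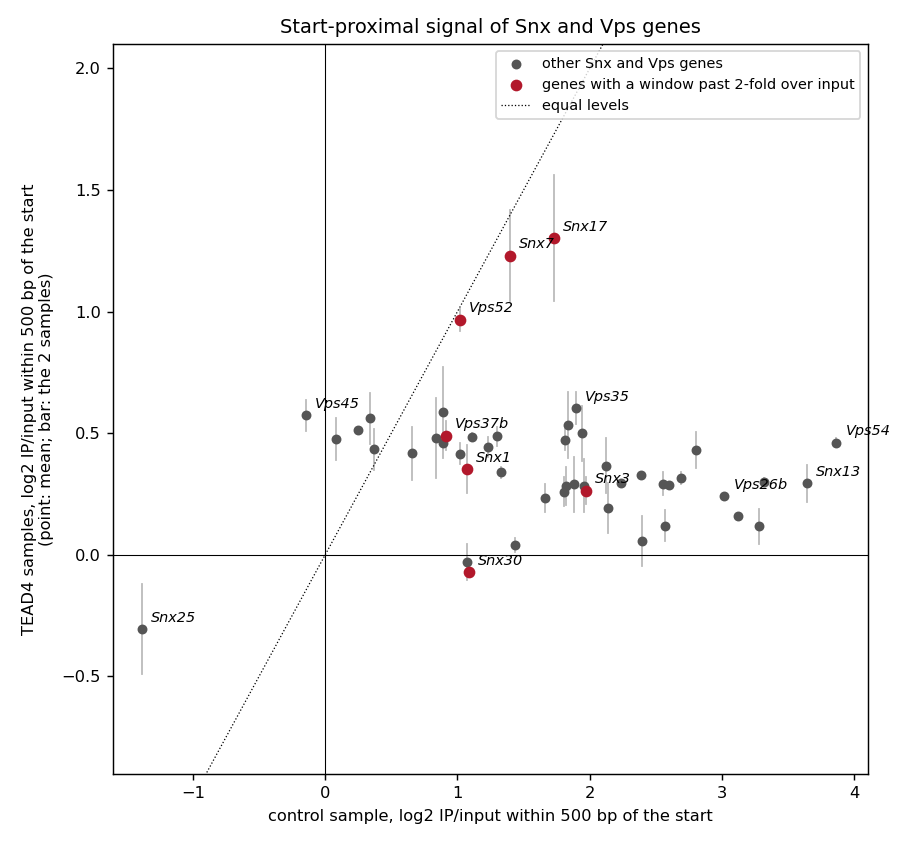
Mean log2 IP/input of the probes within 500 bp of the start in the TEAD4 samples (y axis; points are means and bars join the 2 samples) against the control sample (x axis) for 49 genes, with the 7 genes enriched over input in red. Most points lie to the right of the line of equal levels (24 of 49 after normexp correction), and only Snx7, Snx17 and Vps52 have TEAD4 means near or above 1.

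Against the control, 22 of the 50 genes had a window at least 2-fold higher in both TEAD4 samples (29.9% of all genes), and 40 had a window at least 2-fold lower in both (81.8% of all genes). Limma called 8 genes higher and 40 lower at the window of smallest p, against 12.4% and 81.0% of all genes. The 8 were Snx1, Snx17, Snx25, Snx4, Vps25, Vps33b, Vps35 and Vps45. In all 8 called windows the control was below its input. The TEAD4 mean was also below input at Snx25 (-0.44 and -0.090) and Vps25 (-0.089 and -0.13). It was near input at Vps35 (0.28 and 0.0075) and Vps45 (0.13 and 0.12). The largest differences were 2.20 at Snx1 (1815 bp downstream; 1.12 and 1.22 against -1.03) and 2.20 at Snx7. At Vps54 the difference was 1.94 at 2378 bp, with 0.15 and 0.86 against -1.44. At Vps4b, an ATPase that disassembles ESCRT-III, it was 1.78 at 1249 bp, with 0.14 and 0.27 against -1.57. At Vps72 it was 1.80 at -3514 bp, with 0.59 and 0.94 against -1.04. That window overlaps the Vps72 top window near the start of Pip5k1a, so it cannot be assigned to Vps72 alone. At Vps54, Vps4b and Vps72 the TEAD4 samples were thus under 2-fold over input and the control was below its input. These calls depended on scaling. With a common spread limma called 2 higher and none lower (8 and 4 at an unadjusted p under 0.05), against 0.741% and 0.165% of all genes. After normexp correction it called 2 and 2, against 1.99% and 4.88%, and after loess 15 and 31, against 20.8% and 70.1%. The control is 1 sample, assumed here to vary like the TEAD4 samples.

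By distance from the start, the TEAD4 samples averaged 0.44 and 0.40 over the first 500 bp downstream, where the control averaged 1.79 over 49 genes. From 1000 to 1500 bp they averaged 0.024 and 0.17 and the control -0.32 over 46 genes. Over all genes the same bin held -0.0040 and 0.037 in the TEAD4 samples and 0.19 in the control. The control was below both TEAD4 samples there in 28 of 46 genes (60.9%), against 43.2% of all genes. It was so in 23 of 46 after normexp correction (41.0% of all genes), 26 after loess (44.9%) and 21 with a common spread (31.1%). The difference between these genes and the others was not tested.

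**Figure D4:**
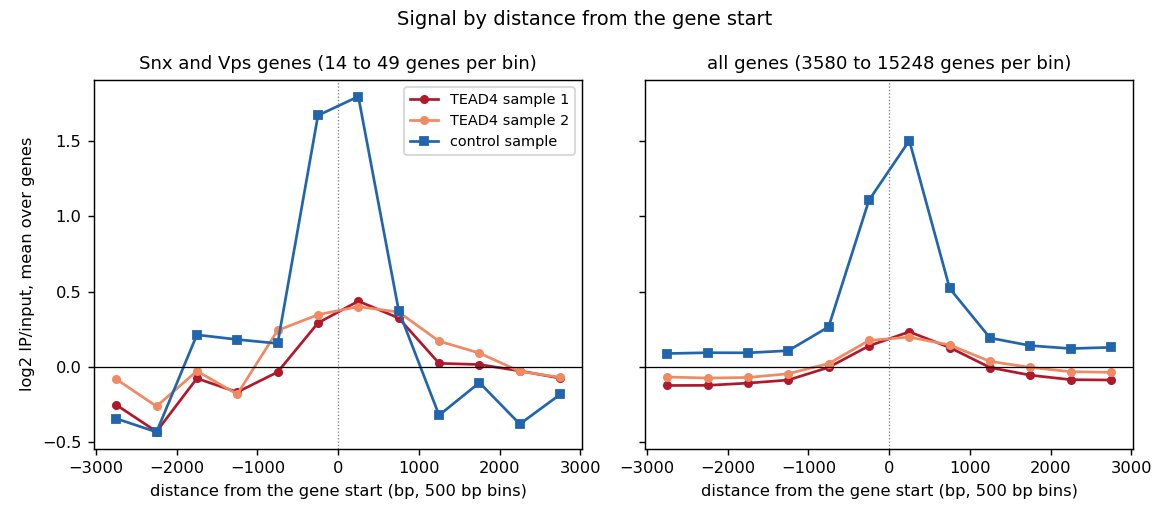
Mean log2 IP/input over genes in 500 bp bins of distance from the start, for the Snx and Vps genes (left) and all genes (right), in the TEAD4 samples (red and orange) and the control (blue). Under the main scaling, the control line peaks at 1.79 just downstream of the Snx and Vps starts, above TEAD4 lines of at most 0.44. In that panel it lies below both from 1000 bp onward. Control medians within 500 bp on either side of these starts were 1.81 under the main scaling, 1.12 after loess and 0.80 with a common spread. After normexp correction the control median was 0.37, with TEAD4 medians of 0.37 and 0.32.

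Other endosomal genes were taken from 7 lists of 100 symbols chosen for their function, of which 77 were measured. Of these, 4 were enriched 2-fold over input in both TEAD4 samples, 25 were called higher and 10 lower by limma, and the median top window was 0.52. The 4 make 5.19% of the 77, at the background of 5.20%, and the limma shares were 32.5% and 13.0%, against 23.9% and 11.8% of all genes. The 4 were Stam and Stam2, the ESCRT-0 adaptors that hand ubiquitinated cargo to ESCRT-I, Rab4a, a GTPase of fast recycling, and Vac14, the scaffold of the kinase complex that makes the phosphoinositide of late endosomes. Stam passed at 743 bp downstream, at 1.15 and 1.01 with -0.23 in the control. Rab4a was at 1.28 and 1.36 with 0.72 in the control, 309 bp downstream. Stam2 was at 1.05 and 1.12 with 1.78 in the control. The passing window of Vac14, at 1.21 and 1.19, lay 98833 bp from its annotated start.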

How the data were processed

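Flag chromatin immunoprecipitates (Cy5) and input DNA (Cy3) were hybridised to 2 promoter array designs for 2 TEAD4 samples and 1 control sample, 6 arrays in all. Per the file headers, the processed intensity values were made with Agilent Feature Extraction 9.5.3.1, background-subtracted and dye-normalised by the authors. The deposited log10 ratios equal those of the series matrix. Which build the array positions follow was not given in the sources used here. They are printed as the files give them, and RefSeq coordinates (GRCm38.p6) belong to the promoter sequences only.

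From the deposited processed intensities, log2 IP/input was computed and each array's median subtracted. Dropping spots that were controls, had no position or were non-uniform kept 236180 and 235643 probes. Windows joined each probe to all probes up to 500 bp away and needed at least 3. Rules of size asked for 2-fold in both TEAD4 samples. Limma 3.58.1 (R 4.3.3) was fitted to all windows of each design. Window p-values (two-sided) were combined per gene by Simes' method and adjusted by Benjamini-Hochberg over the 16326 genes, with a threshold of 0.05. It had 1 residual degree of freedom and 13.4 and 13.9 prior degrees of freedom, so its p-values lean on a spread pooled over windows. Gene direction is that of the window of smallest p. On simulated data with genes raised over input, it recovered 89.6% of 67 genes raised 2-fold and called 129 of 16094 unaltered genes. Against a simulated control it recovered 40.3% of the genes raised 2-fold and 93.2% of 74 raised 4-fold, and called 97. The simulated noise was the difference between the TEAD4 samples, shuffled over probes for each array. Shuffling removed any correlation between neighbouring probes, and the simulated control was given the same noise as TEAD4. The simulated fits had 65.0 and 134 prior degrees of freedom, so these rates cannot be carried over to the real arrays.

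The members, the lists of endosomal genes and the naming rule were chosen with earlier results of these data known. The rule took genes past 2-fold over input, the 10 highest and 3 lowest top windows, the retromer genes and their nexin partners, the 5 largest TEAD4 minus control and 3 largest control windows, the 5 highest start-proximal means, and enriched genes of the other lists. Snx27, a retromer cargo adaptor on that rule's list, was not among the measured genes. Other genes are named for a count or role, chosen after their values were seen. Alternatives were normexp background correction, loess within arrays, a common spread, other windows, only probes well above background, other folds, a Bonferroni p per gene and either TEAD4 sample left out.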

Additional observations from a re-analysis of the deposited data

How the results depend on the processing

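For genes 2-fold over input in both TEAD4 samples the count was 7, against 5.20% of all genes. It was 3 after normexp correction (3.35% of all genes), 11 with a common spread (15.3%) and 2 with a half-width of 1000 bp (2.21%). It was 15 at 1.5-fold (20.2%) and 1 at 3-fold (0.766%), and 7 to 12 with 1 TEAD4 sample left out (8.05% and 15.6%). Loess, 5 probes per window and only probes well above background kept it within 1.5 times. For genes 2-fold above the control the count was 22 (29.9% of all genes). It became 5 after normexp (7.98%), 10 with a common spread (12.5%), 12 at 1000 bp (13.1%) and 10 with 5 probes (16.6%). It was 37 at 1.5-fold (63.5%) and 6 at 3-fold (4.77%). With TEAD4 sample 1 left out it was 26 (46.0%), and with sample 2 left out 31 (42.4%). The 20 genes called higher over input by limma (23.9% of all genes) became 8 after normexp (12.4%). Against the control, the 8 called higher (12.4% of all genes) became 2 after normexp (1.99%) and 15 after loess (20.8%). They became 2 with a common spread (0.741%) and 13 at 1000 bp (15.0%). The 40 called lower (81.0%) became 2 after normexp (4.88%). With a common spread 0 were called lower (0.165% of all genes), or 4 at an unadjusted p under 0.05 by limma. Over all genes, limma called 2021 higher and 13227 lower than the control, against 325 and 796 after normexp and 121 and 27 with a common spread. The causes were not tested.

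For the named Snx and Vps genes, 124 values of the top window were computed under other settings. Of these, 74 moved by less than the spread between the TEAD4 samples, 49 by more, and 1 changed sign, at Snx25 (-0.032 at 1000 bp). Many of the 74 are the same window with an unchanged value. These arose under the 5-probe rule or with only probes well above background, and they say nothing about stability. Snx25 was also at -0.39 without TEAD4 sample 2, against 0.62 without sample 1. No paired analysis was possible because the groups share fewer than 2 replicate numbers. Limma was not run with a TEAD4 sample left out, which would leave no residual degrees of freedom. Precision is limited by the 2 TEAD4 samples, the 1 control sample and the low signal of the control arrays over background.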
